A study of Mus musculus with 2 samples.

Results

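The genes described here are 10 interferon-inducible GTPases of the mouse, 6 guanylate-binding proteins (GBPs; *Gbp2*, *Gbp3*, *Gbp4*, *Gbp6*, *Gbp7* and *Gbp9*) and 4 immunity-related GTPases (IRGs; *Irgm1*, *Irgm2*, *Igtp* and *Iigp1*). They were found by gene name among the 37074 gene names of the array, where they were read by 14 probes, each printed as 1 spot. RNA came from primary hepatocytes of control mice and of *Drp1*LiKO mice, harvested 24 h after seeding, with 1 array per genotype. Controls were labeled wild type and were *Drp1*flox/flox sibling littermates according to the methods of the study, and *Drp1*LiKO mice were *Alb-Cre*Tg/+ *Drp1*flox/flox, so both genotypes carried the floxed alleles. The strain background was C57BL/6 in the labels, which name no agent given to these cells. The methods give an age for purchased wild-type mice, and the age of the mice behind these arrays and the number of animals behind each array were not given in the sources used here. *Alb-Cre* is driven by the albumin promoter, which is active in hepatocytes, so that other liver cells keep *Drp1*. The comparison asked which genes differ in expression when hepatocytes lack dynamin-related protein 1 (DRP1), the GTPase of mitochondrial fission.

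GBPs and IRGs are 2 families of GTPases that most cells hold at a low level and make in quantity after interferon is sensed. Type II interferon (IFN-γ) acts through its receptor and the kinases JAK1 and JAK2, and type I interferons (IFN-α and IFN-β) act through another receptor and a complex that holds STAT2 and IRF9. GBPs and IRGs gather on the vacuoles of intracellular parasites and bacteria and help to break them. IRGs with a changed nucleotide-binding motif (IRGM1, IRGM2 and IGTP) sit on membranes of the host cell and keep the others inactive there, and IIGP1 is an effector that coats the vacuole.

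The control regions of these genes are shown first, because induction by interferon is what these genes are known to have in common. Promoters were taken from RefSeq (GRCm38.p6), from 250 bases before to 50 bases after each transcription start, and 6 of the 10 genes had an entry (*Gbp2*, *Gbp3*, *Gbp7*, *Igtp*, *Irgm1* and *Irgm2*). An interferon motif, GAAANNGAAA on either strand, was searched, together with a STAT motif, TTCNNNGAA, which reads the same on both strands. The interferon motif was in the promoters of 6 of these 6 genes, against 1079 of 27025 genes of the whole table (3.99%). The STAT motif was in 3 of the 6 (*Gbp7*, *Igtp* and *Irgm2*), against 2582 genes (9.55%), and of 32851 single promoters 149 held both (0.454%). A second start listed for *Gbp3* had neither motif in its window. No match of one motif overlapped a match of the other in these genes. The 120 bases before the start of each gene are printed 5′ to 3′ on the strand of the gene, with the matches in capitals, to show how near the start the motifs lie.
Gbp2, chr3:142620543-142620662, plus strand: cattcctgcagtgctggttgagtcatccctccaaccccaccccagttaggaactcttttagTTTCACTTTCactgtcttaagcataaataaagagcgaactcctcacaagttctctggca
Gbp3, chr3:142559924-142560043, plus strand: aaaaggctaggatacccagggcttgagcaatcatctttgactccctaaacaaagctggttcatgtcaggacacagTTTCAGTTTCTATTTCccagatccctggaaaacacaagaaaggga
Gbp7, chr3:142530216-142530335, plus strand: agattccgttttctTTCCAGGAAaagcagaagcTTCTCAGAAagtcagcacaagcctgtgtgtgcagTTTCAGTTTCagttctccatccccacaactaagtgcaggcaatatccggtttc
Igtp, chr11:58199436-58199555, plus strand: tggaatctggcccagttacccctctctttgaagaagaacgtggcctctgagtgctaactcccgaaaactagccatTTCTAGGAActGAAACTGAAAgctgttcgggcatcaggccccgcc
Irgm1, chr11:48871421-48871540, minus strand: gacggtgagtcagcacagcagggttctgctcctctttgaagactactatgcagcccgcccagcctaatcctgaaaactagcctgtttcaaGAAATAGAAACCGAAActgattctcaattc
Irgm2, chr11:58214857-58214976, plus strand: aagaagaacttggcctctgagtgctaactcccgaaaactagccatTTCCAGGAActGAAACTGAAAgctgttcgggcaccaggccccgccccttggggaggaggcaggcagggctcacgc

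The interferon motif began 59 bases before the start of *Gbp2*, 53 before that of *Gbp7*, 34 before that of *Igtp* and 64 before that of *Irgm2*. *Gbp3* and *Irgm1* each had 2 overlapping matches, which gives the longer runs of capitals, from 45 bases before the start of *Gbp3* and from 30 before that of *Irgm1*. In *Igtp* and *Irgm2* the STAT motif and the interferon motif stood 2 bases apart. Over the 61 bases from 40 bases before the STAT motif to the end of the interferon motif, these 2 promoters were identical at 59. The same spacing of 2 bases was found in *Tgtp1*, *Tgtp2* and *Gm12185*, which are other IRGs. Of the 11 GBP and IRG relatives outside the 10 genes that had a promoter entry, 7 held the interferon motif (*Gbp2b*, *Gbp5*, *Tgtp1*, *Tgtp2*, *Gm12250*, *Gm12185* and *9930111J21Rik1*, in the last of them after the start) and 5 the STAT motif. Neither motif was in the windows of *Gm5431*, *9930111J21Rik2*, *Irgq* and *Ifi47*. A match describes these letters only and is not a measured binding site.

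**Figure D1:**
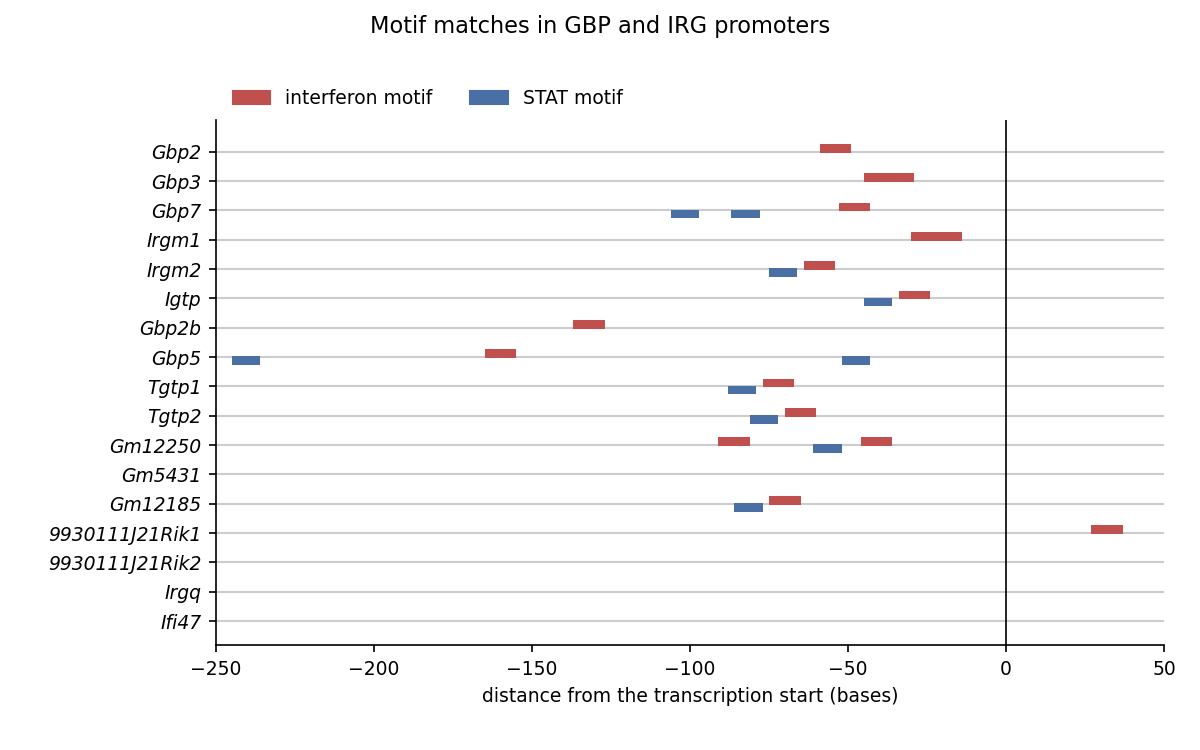
Position of each match of the interferon motif and the STAT motif in promoters of GBP and IRG genes, with the distance from the transcription start in bases on the horizontal axis and 1 line for each of the 10 genes and their relatives with a promoter entry. The interferon matches of the 6 genes begin between 64 and 24 bases before the start, and *Igtp* and *Irgm2* share the pair of motifs 2 bases apart.

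Cy3-labeled RNA was hybridized to arrays that shared 1 slide and 1 scan. A single array stood for each genotype, which leaves no replicate, and hence no test was run, p-values are absent and a difference describes only these 2 arrays. The processed signal of a probe is its intensity on a linear scale after subtraction of background. A log2 ratio is the *Drp1*LiKO minus the control log2 signal, with each array set relative to its own 75th percentile (a signal of 313 on the control and 356 on the *Drp1*LiKO array). The Z score is that ratio in units of SD over the 30275 probes kept, and a gene was called at a Z score of 2, a log2 ratio of 1.30 or 2.46-fold. The error printed after a log2 ratio is the SD expected from noise between spots at that signal, taken from probes printed 10 times. It is technical and holds nothing of the spread between mice. Signals of different probes are not compared with each other, because each probe binds with its own strength. No spot was saturated, and 48.2% of probes on the control and 52.1% on the *Drp1*LiKO array were well above background. *Dnm1l*, which encodes DRP1, had a signal of 2602 in control against 1217 in *Drp1*LiKO hepatocytes, a log2 ratio of -1.28 ± 0.10, and its second probe, near background, had -0.31. The brighter probe had a Z score of -1.95, so *Dnm1l* was not called lower at the threshold of -2.

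Each of the 9 GBP and IRG genes that could be compared had a log2 ratio above 0, with the higher signal in *Drp1*LiKO hepatocytes. Their median log2 ratio was 1.19, with a range from 0.31 to 2.62, beside a median of -0.05 over the 20165 genes compared. A log2 ratio above 0 was found for 44.5% of all genes. Of the 9 genes, 4 were called higher (*Gbp3*, *Gbp6*, *Gbp9* and *Igtp*) and 0 lower, where 3.5% of all genes were called higher and 2.81% lower. *Gbp9* entered through the *Drp1*LiKO array alone, which favors a ratio above 0, and 8 of the genes were measured on both arrays. With the filter on both arrays *Gbp9* dropped out and the median was 1.03, or 1.41 for the GBPs. The number called was then again 4, with *Gbp7* at a Z score of 2.18. The signals of the compared genes summed to 8253 in control against 17584 in *Drp1*LiKO hepatocytes, a normalized 1.88-fold. Such a sum, here and for the marker lists below, weighs each probe by its brightness. The IRGs made up 7291 of the control sum, and by family the fold was 1.83 for the IRGs and 2.27 for the GBPs. The GBPs had a median of 1.55, with 3 of 5 called, and the IRGs had a median of 0.84, with 1 of 4 called. With normexp correction of the raw intensities the order of the families turned, at medians of 0.79 for the GBPs and 0.83 for the IRGs. That correction adds an offset of 50, which lowers the ratios of dim probes most. The control signals of the brightest probes ran from 19.4 to 673 for the GBPs and from 1024 to 2332 for the IRGs. The difference between the families was not tested.

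**Figure D2:**
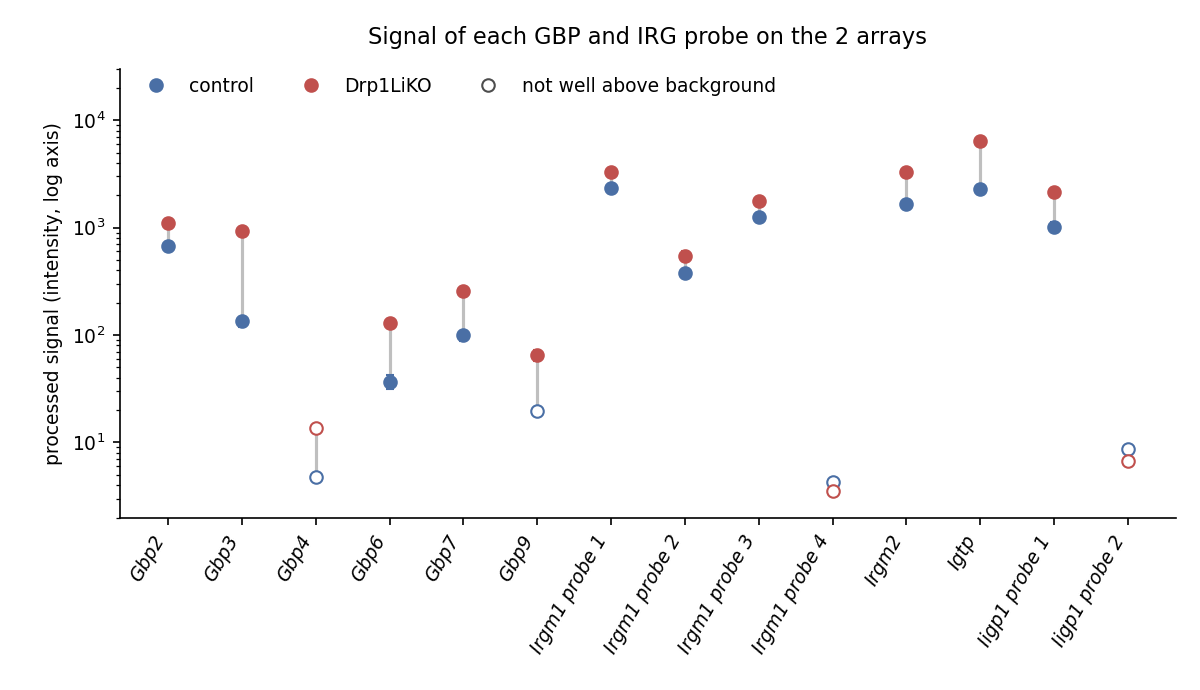
Processed signal (intensity, log axis) of each of the 14 probes of the GBP and IRG genes on the control and the *Drp1*LiKO array, with open points for signals not well above background. The 11 probes compared lie higher on the *Drp1*LiKO array, and the 3 others are dim on both.

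Markers of macrophages were higher as well. Of 15 macrophage markers 13 were compared, and 11 were called higher and 0 lower at a median log2 ratio of 2.44. The signals of those compared summed to 4746 in control against 20706 in *Drp1*LiKO hepatocytes. Those with the largest ratio measured on both arrays were *Marco* (3.45), *Cd5l* (3.05), *Adgre1* (2.65), *C1qa* (2.63) and *C1qc* (2.53). The defining markers *Adgre1* (signals of 46.4 in control against 330.1) and *Cd68* (2346 against 9593) were above background on both arrays, *Clec4f* of Kupffer cells on the *Drp1*LiKO array (119) and not on the control array (13.7), and *Timd4* and *Cd163* on neither. Endothelial markers had a median of 1.26, with 4 of 10 called higher (*Kdr*, *Clec4g*, *Lyve1* and *Cdh5*), and their summed signal was 687 in control against 2364 in *Drp1*LiKO hepatocytes. Of the stellate cell markers 2 of 5 compared were called higher (*Dcn* and *Pdgfrb*), and of the neutrophil markers 1 of 2 compared (*Ly6g*). *Lyve1*, *Pdgfrb* and *Ly6g* were not well above background on the control array, so their ratios are bounds. The neutrophil markers *S100a8*, *S100a9*, *Mpo* and *Cxcr2* were dim on both arrays. *Ly6g* was not called with normexp correction, the filter on both arrays or a Z score in bins of signal. Of the cholangiocyte, dendritic cell and B cell markers 0 of 4, 0 of 1 and 0 of 1 were called higher. Among 10 hepatocyte markers compared, 0 were called in either direction and the median was 0.10. Albumin (*Alb*) had a signal of 219613 in control against 266703 in *Drp1*LiKO hepatocytes, so the defining marker of the labeled cell type was bright on both arrays. Macrophages can make GBPs and IRGs too, and the part of these cells in the values of the GTPases was not tested. In such bulk RNA, more cells of a type and more RNA per cell cannot be told apart.

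*Gbp3* had the largest ratio of the 9 genes compared. Its product is a guanylate-binding protein encoded in a cluster on chromosome 3. The probe of its RefSeq transcript (chr3:142236072-142236131 in mm9, plus strand) had a signal of 134 on the control and 930.4 on the *Drp1*LiKO array. The log2 ratio was 2.62 ± 0.14, a 6.13-fold difference with a Z score of 4.02. The gap from *Gbp3* to the next gene in the order, *Gbp6*, was 0.99 on the log2 scale, or 3.28 times the spot noise of that gap. No other gap between neighbors in the order reached 2 times its noise, so the ratios below *Gbp3* form a graded series in which adjacent genes cannot be separated at this noise. The place of *Gbp9* is not settled, since its control signal was not well above background.

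*Gbp7* and *Gbp2* lie in the same cluster on chromosome 3. *Gbp7* (chr3:142209379-142209438) had a signal of 99.1 in control against 257 in *Drp1*LiKO hepatocytes, a log2 ratio of 1.19 ± 0.14 and a Z score of 1.84. It lay just outside the threshold, with *Igtp* just inside at 2.01. *Gbp2* (chr3:142300719-142300778), a GBP that coats vacuoles of parasites, had a signal of 673 in control against 1099 in *Drp1*LiKO hepatocytes. Its log2 ratio of 0.53 ± 0.11 (Z score 0.82) was the smallest of the 5 GBPs compared among the 10 genes. Both *Gbp2* and *Gbp3* hold the interferon motif in the windows printed above.

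*Gbp6*, *Gbp9* and *Gbp4* belong to the second GBP cluster, on chromosome 5, and were dim. *Gbp6* (chr5:105700081-105700140, minus strand) had a signal of 36.8 in control against 129 in *Drp1*LiKO hepatocytes. Its log2 ratio was 1.63 ± 0.27, a 3.09-fold difference with a Z score of 2.50. *Gbp9* (chr5:105523238-105523479) had a signal of 19.4 on the control array, where it was not well above background, and 64.7 on the *Drp1*LiKO array. That control signal lay above the lowest one counted as well above background (18.2), so it was used as it stood. The difference was 2.93-fold on the scale of the processed signals, which rests on a dim signal and is not a lower bound. For these 2 genes the size rested on the processing. With normexp correction of the raw intensities the log2 ratio was 0.79 for *Gbp6* and 0.44 for *Gbp9*. That correction also adds an offset of 50, which lowers the ratios of dim probes most. Background removal and the offset were not tested apart. The Z scores were then 1.999 for *Gbp6*, narrowly below the threshold, and 1.15 for *Gbp9*, so neither was called. *Gbp4* (chr5:105544852-105544911) had signals of 4.76 and 13.7, not well above background on either array, and could not be compared.

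Among the IRGs, *Igtp* had the largest ratio. Its product, also called IRGM3, is 1 of the 3 regulators that guard host membranes. The probe (chr11:58020927-58020986, plus strand) had a signal of 2286 in control against 6412 in *Drp1*LiKO hepatocytes, a log2 ratio of 1.31 ± 0.08 and a 2.47-fold difference. Its Z score of 2.01 stood at the threshold, and without the floor on dim signals, which widens the SD of all probes, it was 1.40. *Irgm2*, the neighbor of *Igtp* with the near-identical stretch of promoter printed above, had a signal of 1649 in control against 3269 in *Drp1*LiKO hepatocytes (chr11:58036064-58036123). Its log2 ratio of 0.80 ± 0.10 was lower than that of *Igtp* by more than the spot noise of either, and its Z score was 1.25.

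*Irgm1*, the regulator best known for its part in resistance to mycobacteria and in autophagy, lies apart from them on chromosome 11. It was the only one of the 10 genes with more than 1 probe above background, and these gave 3 readings of the same gene. The brightest (chr11:48679069-48679128, minus strand) had a signal of 2332 in control against 3287 in *Drp1*LiKO hepatocytes, the next 1257 against 1764, and the third 376 against 549. Their log2 ratios were 0.31, 0.31 and 0.36, so the probes differed by less than the spot noise of 1 reading (0.10). The remaining probe, of another transcript, was not well above background on either array. With a Z score of 0.49, *Irgm1* had the smallest ratio of the 9 genes.

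*Iigp1*, the effector IRG that loads onto parasite vacuoles, was read by a probe on chromosome 18. Its signal was 1024 in control against 2136 in *Drp1*LiKO hepatocytes, a log2 ratio of 0.88 ± 0.11 with a Z score of 1.36. A second probe, for another transcript record, was dim on both arrays. The effector thus lay between the regulators *Igtp* and *Irgm2*, and it differed from *Irgm2* by 0.50 times the noise of the gap.

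**Figure D3:**
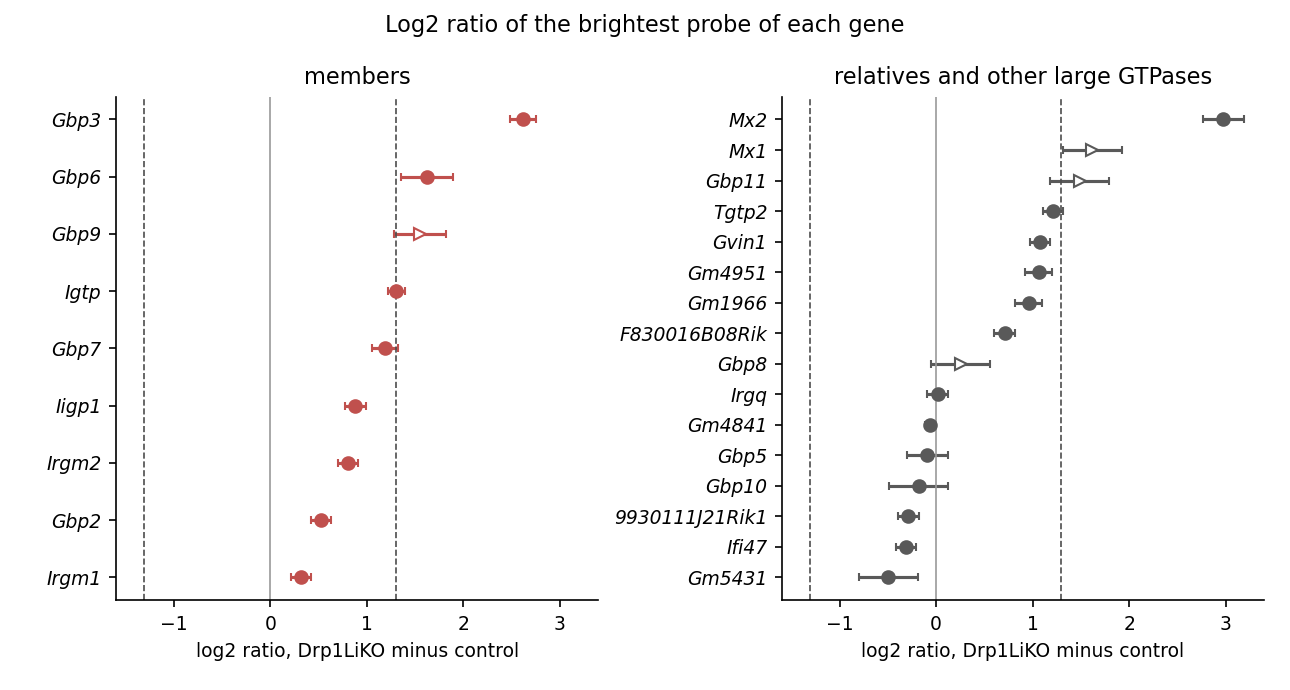
Log2 ratio (*Drp1*LiKO minus control) of the brightest probe of each GBP and IRG gene compared, left, and of their relatives and other large GTPases, right. Bars are 1 SD of spot noise, open triangles mark genes not well above background on the control array, and dashed lines lie at Z scores of 2 and -2. The 9 genes on the left run from 0.31 to 2.62, whereas several relatives lie at 0 or lower (*Gm12250*, with no fold, is not drawn).

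Relatives of the same families were not all higher. Of the GBPs outside the 10 genes, *Gbp5*, a GBP linked to inflammasome assembly, had a signal of 143 in control against 152 in *Drp1*LiKO hepatocytes, a log2 ratio of -0.09. Its other probe, for the RefSeq transcript, was not well above background on the control array (4.03) and read 20.8 on the other. *Gbp10*, in the chromosome 5 cluster, had 54.1 on both arrays (-0.18). *Gbp8* was detected in *Drp1*LiKO cells alone, at least 1.19-fold higher. *Gbp11* was also detected there alone, with a signal of 57.9, at least 2.80-fold higher, and was called, though not with normexp correction, in the deposited values or by a Z score in bins of signal. *Gbp2b* was not well above background on either array, and no probe carried the name *Gbp1*. Over the 4 relatives compared, the median was 0.08 and 1 was called.

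Among the IRG relatives, 3 had ratios within the range of the 10 genes. *Tgtp2*, an IRG with the paired motif, had a signal of 436 in control against 1144 in *Drp1*LiKO hepatocytes, a log2 ratio of 1.21 (Z score 1.87). *Gm4951* on chromosome 18 had 149 on the control and 353 on the *Drp1*LiKO array, a log2 ratio of 1.06, and 1.25 at its second probe. *F830016B08Rik*, also on chromosome 18, had 766 and 1422 in the same order, a log2 ratio of 0.71. The others were near 0 or below it. *Irgq*, a distant member of the family, had a log2 ratio of 0.01, *Gm4841* -0.06, *9930111J21Rik1* -0.29 and *Gm5431* -0.50. The value of *Gm4841* rests on a bright probe (7987 in control). Its second probe, for the same transcript, was not well above background on either array (6.83 and 11.7). The second probe of *9930111J21Rik1* had -0.67 and that of *Irgq* -0.12. *Ifi47*, the IRG also named *Irgd*, was bright, with a signal of 1589 in control against 1453 in *Drp1*LiKO hepatocytes, a log2 ratio of -0.31 ± 0.10. *Gm12250*, also named *Irgb10*, was above background in *Drp1*LiKO cells alone, at 20.4, near the detection limit of the control array, so no fold is given. *Gm12185*, *9930111J21Rik2*, *Irgc1* and *Iigp1b* were dim on both arrays, and no probe carried the name *Tgtp1*. Of these, *Gm12185* and *Tgtp1* hold the paired motif too. Of the 9 IRG relatives compared 0 were called, with a median of -0.02. That count was 1 with normexp correction, the filter on both arrays, no floor or a Z score in bins of signal. It was 2 in the deposited values or without the filter on dim probes, and 3 with a robust Z score.

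Members of these clusters are close in sequence, and a probe may bind transcripts of more than 1 of them. The probes of the 10 genes shared runs of 12 to 16 bases at most with the probe of any other gene and matched at most 33 of 60 bases in place. Transcripts were not compared, so binding between paralogs was not tested.

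Of 4 other large GTPases induced by interferon that were compared, 2 were called higher, with a median of 1.35. The filter on both arrays left 1 called and a median of 1.08. The count was 3 with normexp correction or in the deposited values, and 4 without the filter on dim probes or with a robust Z score. The median was 0.91 with normexp correction, 1.54 in the deposited values and 2.03 without the floor. *Mx2*, an antiviral dynamin-like GTPase, had a signal of 49.8 in control against 445 in *Drp1*LiKO hepatocytes, a log2 ratio of 2.98. *Mx1* was at least 3.07-fold higher, with a control signal not well above background (4.23). Its second probe was dim on both arrays. Of the very large inducible GTPases, *Gvin1* had a log2 ratio of 1.08 and *Gm1966* of 0.96, while *Gm8995* and *Gm17757* were dim on both arrays.

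The pathways that induce GBPs and IRGs were read from ligand to target. Of the ligands, the gene of IFN-γ, *Ifng*, had signals of 3.65 and 2.98, not well above background on either array. *Ifnb1*, the gene of IFN-β, had a signal of 6.27 on the control array, where it was not well above background, and 93.3 on the *Drp1*LiKO array, at least 4.51-fold higher. It was the only gene called of 10 compared in a list of interferon genes and genes of cytokines that induce interferon. The median of that list was 0.21. None of the 10 was called in the deposited values or by a Z score in bins of signal, and the filter on both arrays leaves *Ifnb1* out. T and NK cells are the usual sources of IFN-γ, and 3 of 12 of their markers were compared (*Cd3e*, *Cd4* and *Prf1*), with 0 called, a median of -0.47 and a summed signal of 1508 in control against 1224 in *Drp1*LiKO hepatocytes. Most of that sum was *Cd4*, with 1078 in control against 881. The other markers of the list, among them *Cd3d*, *Cd3g*, *Cd2*, *Cd8a*, *Ncr1* and *Nkg7*, were not well above background on either array. The list therefore cannot show whether RNA of T or NK cells differed.

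Genes of IFN-γ signaling had a median log2 ratio of -0.04 over the 11 genes reported here, with 0 called in either direction and a range from -0.22 to 1.23. *Irf1*, a factor that IFN-γ induces and that drives GBP genes, had a signal of 2021 in control against 2015 in *Drp1*LiKO hepatocytes, a log2 ratio of -0.19. Genes of type I signaling had a median of 0.79 over 8 genes, with 3 called higher. They were *Usp18*, an inhibitor of the receptor (2.41), *Irf7*, a factor for interferon genes (1.97), and *Stat2* (1.35).

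Target genes of both branches were set beside the GTPases. Of 20 genes listed for type I interferon, 15 were called higher and 0 lower, at a median of 2.46. Among those measured on both arrays, the 5 with the largest ratio were *Rsad2* (5.36), *Oasl2* (4.37), *Oas1a* (4.20), *Ifit3* (4.19) and *Ifit1* (3.53), which encode antiviral proteins. Of 20 genes listed for IFN-γ, 4 were called higher and 1 lower, with a median of 0.58. Those higher were *Cxcl10*, a chemokine gene that type I interferon induces as well (3.44), *Cd74*, the invariant chain of MHC class II (2.14), *Cxcl9*, a chemokine gene (1.44), and *Batf2*, at least 2.65-fold. *Ido1*, which encodes an enzyme of tryptophan breakdown, had a signal of 84.2 in control against 25.2 in *Drp1*LiKO hepatocytes, a log2 ratio of -1.92. The median of the GTPases (1.19) lay between those of the 2 target lists, and no difference between lists was tested. *Cd74* is also expressed by antigen-presenting cells, and the macrophage markers given above were higher too.

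**Figure D4:**
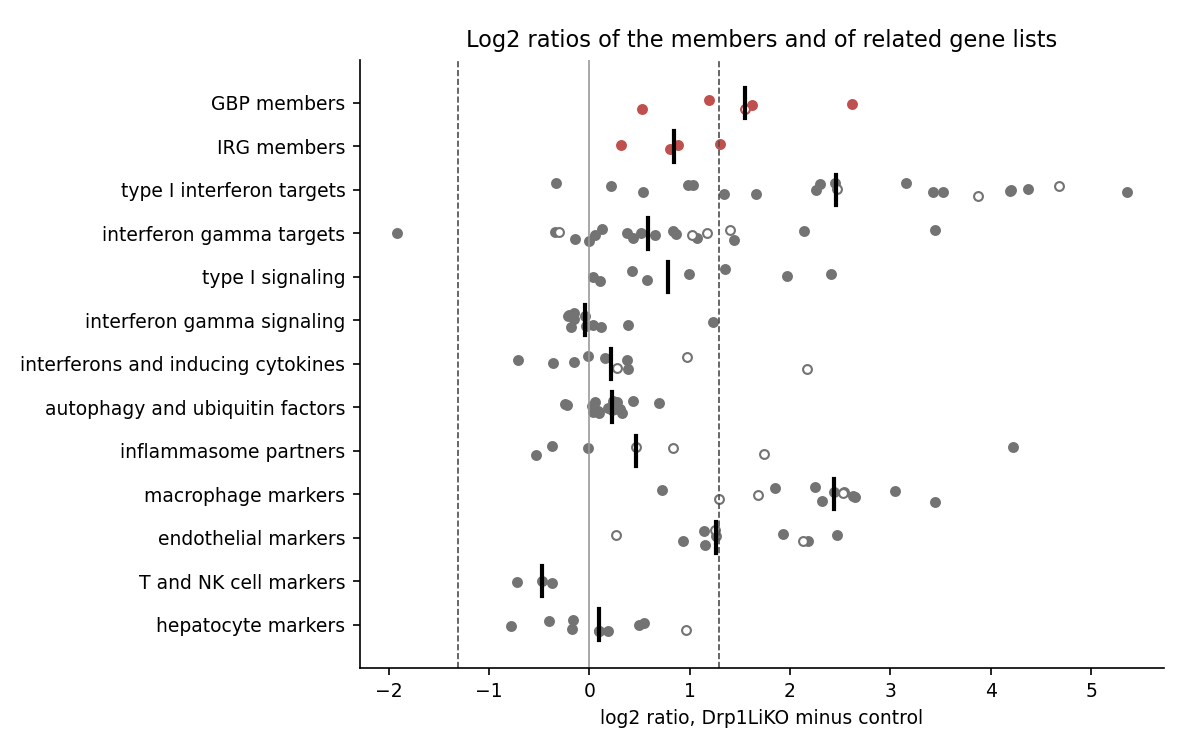
Log2 ratios (*Drp1*LiKO minus control) of the GBP and IRG genes and of gene lists of the interferon pathways, the machinery that places GTPases on vacuoles, inflammasome genes and cell type markers, 1 point per gene, with the median of each list. The type I targets have a median of 2.46, the macrophage markers of 2.44, the GTPases of 1.19 and the IFN-γ signaling genes of -0.04.

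Partners of the GTPases were set beside them. The ATG8 family and its conjugation system (*Atg3*, *Atg5*, *Atg7*, *Atg12*, *Atg16l1* and others) direct IRGs and GBPs to vacuoles. Over the 17 genes of this machinery 0 were called, the range was from -0.25 to 0.69 and the median was 0.22. GBPs also open bacteria to inflammasome sensing. Of 7 inflammasome genes compared 2 were called, *Casp4*, the sensor of intracellular lipopolysaccharide, with a signal of 46.5 in control against 985 in *Drp1*LiKO hepatocytes (log2 ratio 4.22), and *Casp1*, at least 3.34-fold higher. With normexp correction, with the filter on both arrays or by a Z score in bins of signal, 1 gene of the list was called. The median of that list was 0.47, and *Nlrp3* was not well above background on either array.

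The order of the 10 genes was next read under 12 other ways of processing. The ratio of each of the 9 genes stayed above 0 in all those alternatives that could give a value. Quantile normalization, normexp correction, spike-in scaling and the deposited values recomputed these ratios. The filters, the floor and the Z score rules cannot change the ratio of any of the 9 genes that is kept. The median or the mean of probes could change that of *Irgm1* alone, and retained outlier spots left the ratios almost as they were. Staying above 0 in those settings was thus largely fixed in advance. *Gbp3* was called in 12 of 12 and *Igtp* in 11 of 12. *Gbp6* was called in 9 of 12 and *Gbp9* in 8 of 11, whereas *Gbp2* and *Irgm1* were called in 0 of 12. *Gbp7* and *Iigp1* each passed in 4 and *Irgm2* in 2.

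**Figure D5:**
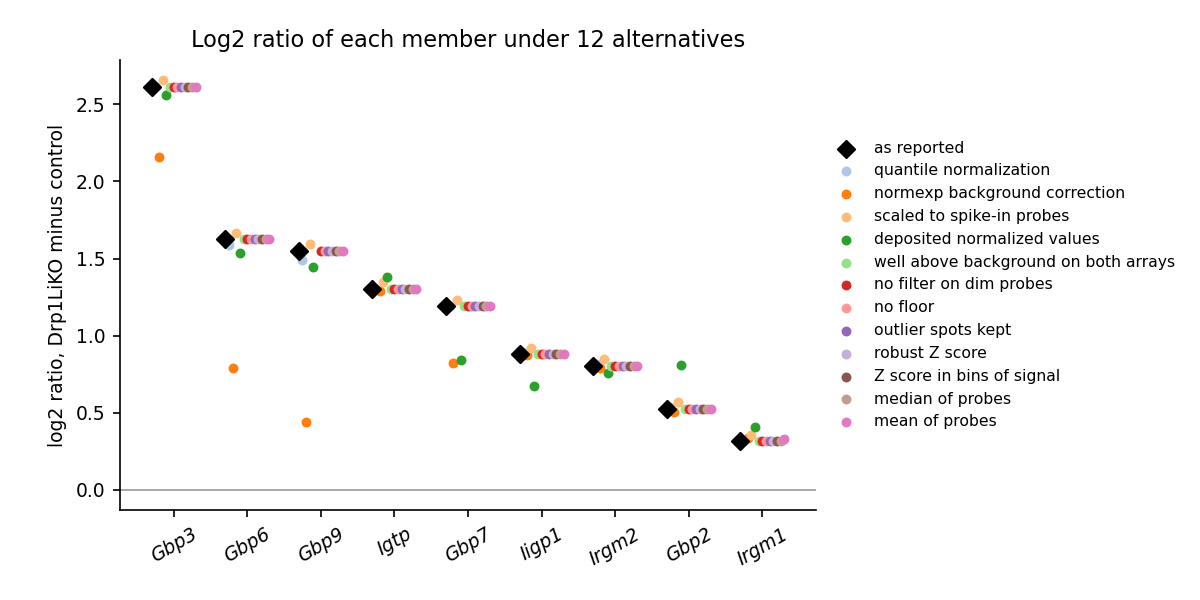
Log2 ratio (*Drp1*LiKO minus control) of each gene as reported (diamonds) and under 12 alternatives (points). *Gbp6* and *Gbp9* spread most, down to 0.79 and 0.44 with normexp correction, and *Gbp3* stays at 2.16 or higher. Alternatives that cannot change a ratio repeat the reported value.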

How the data were processed

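Gene expression of control and *Drp1*LiKO primary hepatocytes was measured on 60-mer Agilent arrays of 1 color, with 1 array per genotype. The authors deposited the intensity of each spot from Feature Extraction, both raw (mean and local background) and processed (background removed), without normalization between arrays. The version was 9.5.1.1 in the labels and 10.7.1.1 in the file header. They also deposited a table of normalized intensities, which was used only as an alternative because the order of its *Drp1*LiKO column departed from that of the array (rank correlation 0.958). Coordinates of probes are those of the files, in mm9, and promoters are in GRCm38.p6.

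After removal of control and outlier spots, the log2 processed signals of a probe were averaged and set relative to the 75th percentile of their array. Probes had to be well above background on 1 array or both. Dim signals below the lowest signal well above background were set to it (18.2 on the control and 15.0 on the *Drp1*LiKO array) before the ratio. A ratio that rests on a signal set in this way is a bound, called at least N-fold. The control signal of *Gbp9*, dim but above that value, was used as it stood. A gene was its brightest probe, and it was called at a Z score of 2 or -2 over the probes kept, the threshold that the study used. Of the 14 probes of the GTPases none was an outlier spot.

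The 10 genes, the gene lists and the marker lists were chosen with earlier results of these data known. Named genes were the 10 genes with every probe, their relatives, *Dnm1l*, *Ifng*, *Ifnb1* and *Irf1*, and of each list the genes called (the 5 with the largest log2 ratio measured on both arrays, if more were called). Defining markers were named besides by their role. A gene of the pathway lists was left out and is not reported here. The 12 alternatives were quantile normalization, normexp (offset 50), spike-in scaling (7 probes), the deposited values, a filter on both arrays or none, no floor, outlier spots retained, a robust Z score, a Z score in 20 bins of signal, and the median or the mean of the probes of a gene. The number of arrays limits the precision. The steps were tested on simulated data. Software was R 4.3.3 with limma 3.58.1 and Python 3.11.15 with pandas 2.3.3, numpy 2.4.6 and matplotlib 3.10.9.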

Additional observations from a re-analysis of the deposited data

How the results depend on the processing

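No paired analysis was possible because each genotype had 1 array and the labels gave no replicate numbers, and for the same reason no array could be left out. Of 48 summary values of the GTPases under the 12 alternatives, 39 kept their size and 9 moved, and 0 of the medians among them changed direction. The medians could not change with the floor or the Z score rules, so part of the 39 was fixed in advance. Counts of genes called have no direction. A count of 3 (Z score in bins of signal), 5 (normexp correction) or 6 (no filter on dim probes) in place of 4 was taken as kept. The number of the GTPases called higher, 4 as reported, was 1 without the floor (*Gbp3*) and 7 with a robust Z score, under which 1722 of all genes were called higher in place of 705. Their median log2 ratio, 1.19, was 0.79 with normexp correction, 0.84 in the deposited values and 1.03 among probes well above background on both arrays. That of the GBPs, 1.55, was 0.79, 1.44 and 1.41 in these settings, and that of the IRGs, 0.84, was 0.72 in the deposited values and 0.83 with normexp correction. The last filter drops *Gbp9*. The normexp correction adds an offset of 50, which lowers the ratios of dim probes most, and its part was not tested apart from background removal. The cause of the shifts in the deposited values was not tested. Without the filter on dim probes 1355 genes were called higher, the share of higher calls went from 55.5% to 69.4%, and the median of all genes was -0.47. Dim signals limit *Gbp4*, *Gbp6* and *Gbp9* most.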

Other observations

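Genes beside the GTPases in the genome were read as well. Within 1 Mb of the 5 loci that hold the genes compared, 95 genes outside the 2 families were compared, 3 were called higher and 2 lower, and their median log2 ratio was -0.04. The 3 higher were *Cd74* and *Pdgfrb*, near *Iigp1*, and *Gfpt2*, near *Irgm1*. *Pdgfrb* and *Gfpt2* were not well above background on the control array. Around *Gbp2*, *Gbp3* and *Gbp7* 0 of 6 neighbors were called, and around *Igtp* and *Irgm2* 0 of 36 were higher and 1 was lower.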
